A study of Nothobranchius furzeri with 20 samples.

Results

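The 10 brain libraries of 27-week turquoise killifish were split into a pair of runs by the numbers in their titles, and the runs were compared across all genes. JM132, JM133, JM134, JM135 and JM136 form the first run. JM139, JM140, JM141, JM143 and JM144 form the second, which starts after a gap in the numbering. These 10 of the 20 libraries of the series carry the same labels: 27 weeks of age, male, strain MZM-04/10p (derived from the wild), brain, exercised in a swim tunnel. The other 10 libraries come from 9-week males of the same strain, 5 exercised in the swim tunnel and 5 without exercise. The labels give no tank, day, duration of exercise or batch, and do not say whether the runs were treated alike or whether each library is a separate fish. All 10 carry the exercise label, but whether it holds for both runs was not checked against any other source, which limits what a first-over-second difference can be read as. A paper was not used here. Fold changes are first over second run.

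The turquoise killifish (Nothobranchius furzeri) is an annual fish of temporary ponds that ages within months, and its brain is used to study vertebrate ageing. In vertebrates, aged brains are known for more inflammatory and less neurogenic gene expression, and physical activity is known to change neuronal activity, blood supply and metabolism in the brain. The deposited gene identifiers pair with no names, and 0 of 26739 matched the RefSeq table of assembly NfurGRZ-RIMD1, so neither pathways nor brain markers could be read from these counts and genes are described by level, length and behaviour.

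Total counts were lower in the first run, at 21681356 ± 1989590 (SD, n = 5; 19356620 to 24311436), than in the second, at 26436308 ± 1831296 (n = 5; 24301659 to 28564200). The difference of -4754953 counts passed an exact two-sided permutation test (p = 0.0159, 0.0317 adjusted over 2 depth measures; the smallest p that 5 against 5 allows is 0.00794). It did not pass after adjustment without JM141 (exact p = 0.0317, adjusted 0.0635), nor without JM132, JM134, JM136, JM140, JM143 or JM144, each at adjusted p = 0.0635. Genes detected numbered 21704 ± 91.6 in the first run and 21807 ± 41.9 in the second (exact p = 0.0714, two-sided). The runs were chosen after the counts of these libraries had been seen to part. The permutation test assumes a split fixed unseen, so these depth p-values are descriptive only. JM141 stood apart from the other 19 libraries, with 880 genes above and 296 below the level of the rest by 4-fold or more, and with 10.4% of its counts in its 10 most counted genes, against 3.05% to 3.72% elsewhere. The main results that use it are therefore given with and without it.

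The runs differed in a broad set of genes, mostly by small amounts and in both directions. With counts per gene as the unit, edgeR's quasi-likelihood test with Benjamini-Hochberg adjustment over 19333 genes called 1151 genes at an adjusted p below 0.05, which is 5.95% of those tested. Of these, 558 (2.89%) were higher and 593 (3.07%) lower in the first run. Without JM141 it called 1616 of 19450 (8.31%), 798 higher (4.1%) and 818 lower (4.21%). The runs were chosen by title number after the counts of these same libraries had been seen to part that way, so the calls describe the size of the difference and carry no p-value. In bulk brain RNA, fewer cells of a type and less RNA per cell cannot be told apart.

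Differences of less than 1.5-fold made up most of the calls. They numbered 463 of the 558 higher genes and 372 of the 593 lower genes. A difference of 2-fold or more was seen in 35 higher and 74 lower genes, and one of 4-fold or more in 7 and 10. On the log2 scale the median difference was 0.38 in size among higher and 0.50 among lower genes, and differences of 2-fold or more were more often on the lower side in this fit. Without JM141 the counts of 2-fold or more were 54 higher and 81 lower, and the median sizes 0.37 and 0.44. That lean turned without JM132, with 75 higher and 56 lower, without JM132 and JM141, with 145 and 69, and in DESeq2 without JM141, with 115 and 94.

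The fits with and without JM141 shared 506 higher and 544 lower genes, and 0 genes changed side. The shared genes were 91.2% of the calls with JM141 and 65.0% of those without it. Other libraries moved the number of calls as well. It was 394, 516, 657 and 493 without JM133, JM134, JM135 and JM136, and 628, 713, 466 and 580 without JM139, JM140, JM143 and JM144. Leaving out JM132 of the first run gave 844. In all, 158 higher and 181 lower genes were called with every library present and whichever single library was left out.

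Nfu_g_1_010177 had the largest fall among the called genes. It had 2.66, 2.71, 2.80, 4.44 and 4.39 CPM (the gene's count scaled to a common library total) in JM132 to JM136, against 53.4, 50.2, 46.1, 73.4 and 66.1 CPM in JM139, JM140, JM141, JM143 and JM144. Every library of the first run lay below every library of the second. The means were 3.40 ± 0.927 CPM in the first run and 57.8 ± 11.5 CPM in the second (SD, n = 5 each). The edgeR fit, which also scales for library composition, gave an 18.5-fold difference (log2 fold change -4.21, SE 0.20). Without JM141 the log2 fold change was -4.19 (SE 0.20).

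Nfu_g_1_011166 was next in size among the lower genes. It had 2.57, 3.00, 2.51, 2.48 and 4.08 CPM in JM132 to JM136, against 37.3, 33.9, 37.5, 39.5 and 47.3 CPM in JM139, JM140, JM141, JM143 and JM144. The runs did not overlap. On CPM, with no scaling for composition, JM141 sat among the other libraries of its run for this gene. The means were 2.93 ± 0.679 CPM and 39.1 ± 5.01 CPM (SD, n = 5 each; log2 fold change -3.88, SE 0.19, or -3.78, SE 0.16, without JM141).

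On the higher side the largest difference was that of Nfu_g_1_009022. It had 64.9, 68.7, 40.5, 13.5 and 50.7 CPM in JM132 to JM136, against 0.700, 2.81, 2.56, 2.91 and 3.15 CPM in JM139, JM140, JM141, JM143 and JM144. JM135 was the lowest of the first run and still above the whole second run. The means were 47.7 ± 22.2 CPM and 2.43 ± 0.988 CPM (SD, n = 5 each; log2 fold change 4.15, SE 0.52, or 4.29, SE 0.55, without JM141).

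Nfu_g_1_009750 was the second gene taken from the higher side. It ranked 4 by size there, since the genes between did not meet every condition for naming (a call with and without JM141, and separate runs). It had 27.3, 18.7, 19.9, 42.7 and 15.6 CPM in JM132 to JM136, against 8.11, 4.78, 3.33, 2.54 and 2.51 CPM in JM139, JM140, JM141, JM143 and JM144. The means were 24.8 ± 10.9 CPM and 4.25 ± 2.34 CPM (SD, n = 5 each; log2 fold change 2.43, SE 0.38, or 2.45, SE 0.42, without JM141). Both genes higher in the first run varied more among its libraries than the lower genes did.

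**Figure D1:**
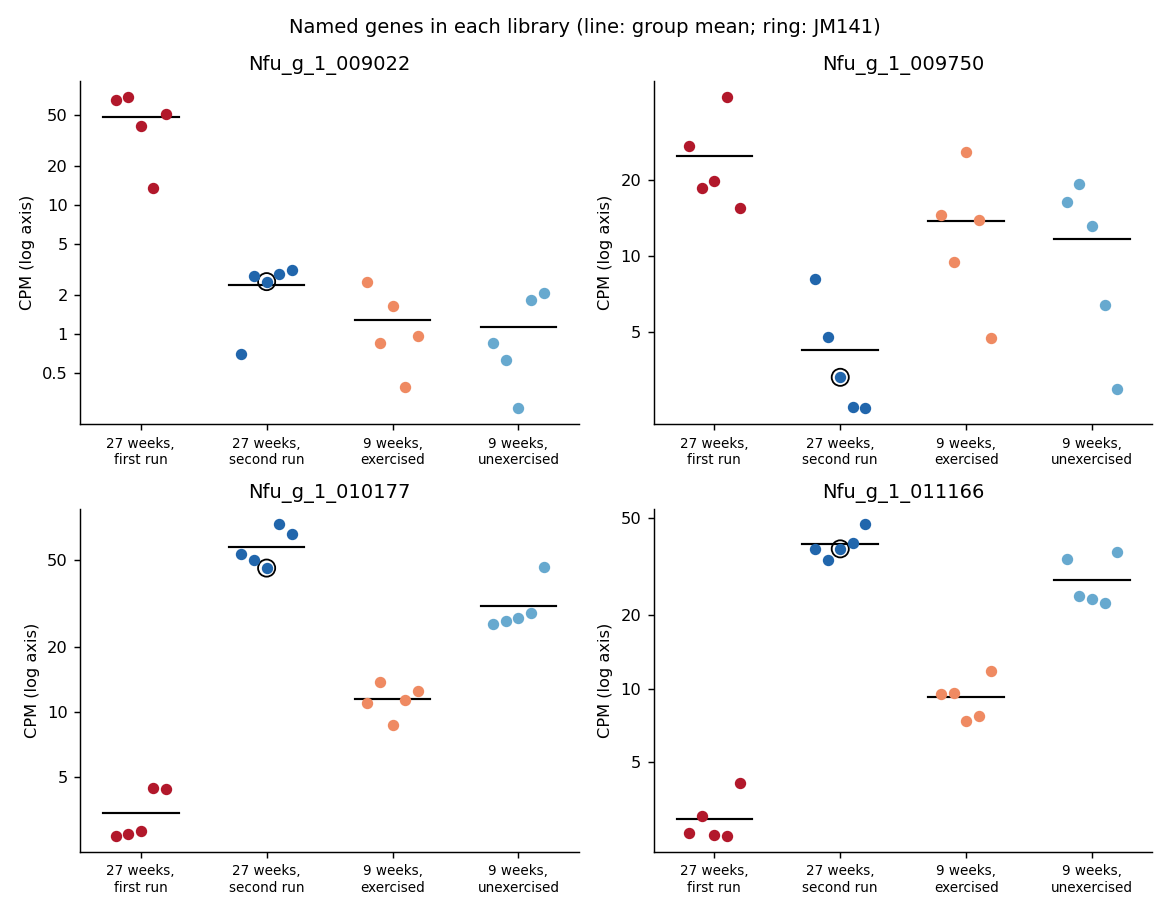
CPM of the 4 named genes on a log axis, 1 point per library, in the 27-week runs and the 9-week groups, with lines at group means. Nfu_g_1_010177 and Nfu_g_1_011166 lay lowest in the first run, higher in exercised and higher again in unexercised 9-week libraries, while Nfu_g_1_009022 was high in the first run alone among these 4 groups.

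Complete separation of the runs was more common than the calls. On CPM, the libraries of the runs did not overlap for 1835 of 19333 genes (9.49%), with the first run above in 1483 (7.67%) and below in 352 (1.82%). That split moved with the scale. The 880 genes high in JM141 held 25.7% of its counts, which lowers the CPM of its other genes. On CPM with TMM scaling (trimmed mean of M-values, a factor for composition) the first run lay above in 903 genes (4.67%) and below in 973 (5.03%) of 1876 (9.7%). Without JM141 there were 2828 such genes on CPM (14.5%), 1655 above (8.51%) and 1173 below (6.03%), and 2700 with TMM scaling (13.9%), 1315 above (6.76%) and 1385 below (7.12%). Among genes tested both times, leaving out any library can only add such genes. The rise was not counted for any other library, so whether its size is particular to JM141 was not tested. On the TMM scale the runs did not overlap for 510 of the 558 higher and 534 of the 593 lower calls.

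Genes present in every library of one run and absent from the other were nearly missing. There were 2 genes with counts in all 5 libraries of the second run and 0 in the first, with at most 6 counts, and 0 genes the other way round. Without JM141 there were 5 such genes with at most 6 counts, and 1 the other way round with at most 2. Called genes together took a small part of each library. Genes called higher held 3.85% to 3.95% of the counts in libraries of the first run, against 2.85% to 3.02% in JM139, JM140, JM143 and JM144 and 1.93% in JM141. Genes called lower held 2.61% to 2.74% in the first run, against 3.65% to 3.94% in those 4 libraries and 2.86% in JM141. Genes called higher without JM141 held 5.25% to 5.37% in the first run, against 3.95% to 4.16% in the same 4 libraries, and genes called lower without it held 4.51% to 4.67%, against 5.92% to 6.27%.

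Called genes had higher levels than the genes tested. Mean levels over the 10 libraries had a median of 44.0 CPM for the higher genes and 29.6 CPM for the lower genes, against 18.2 CPM for all 19333 tested. For the genes called without JM141 these medians were 40.5 and 33.1 CPM, against 18.0 CPM. Of genes with a mean of 10 to 100 CPM 8.06% were called, and of those at 100 CPM or more 7.20%. At 1 to 10 CPM the share was 2.94%, and below 1 CPM it was 1.08%, where the called differences were larger, at a median of 0.99 in log2 units. At 100 CPM or more the median size of the calls was 0.35. Over all genes tested, called or not, the median size was 0.36 below 1 CPM and 0.14 at 100 CPM or more. The test calls a given difference more readily at higher counts, so the share called does not show where differences were larger. Without JM141 the shares called were 11.2% at 10 to 100 CPM, 11.4% at 100 CPM or more, 4.08% at 1 to 10 CPM and 1.29% below 1 CPM.

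Gene length also differed between the sets. Length here is the length implied by the deposited RPKM values, with a median of 2684 bp over all genes tested. Higher genes had a median length of 3796 bp and lower genes one of 2886 bp, or 3472 bp and 2898 bp without JM141. The share called was 4.41% under 800 bp and 7.13% from 9000 bp upward, or 5.61% and 9.81% without JM141. Lengths were not compared at matched counts, and the test calls a given difference more readily at higher counts. The length of called genes alone thus does not show where differences were larger. Over all genes tested, the median log2 fold change was -0.08 among 2451 genes under 800 bp and 0.07 among 855 genes from 9000 bp upward. Without JM141 these were -0.04 and 0.05. A trend of log2 CPM on length was computed for each library relative to the mean of all 20. Its slope averaged 0.00160 ± 0.00223 log2 units per doubling of length in the first run and -0.0195 ± 0.0236 in the second (SD, n = 5 each), or -0.00934 ± 0.00715 without JM141 (n = 4). JM132, the lowest of the first run at -0.00178, and JM139, the highest of the second at -0.00182, were next to each other. Once each library's length trend was taken out, edgeR called 1189 genes, 644 higher and 545 lower, and the median lengths were 3469 and 3249 bp.

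**Figure D2:**
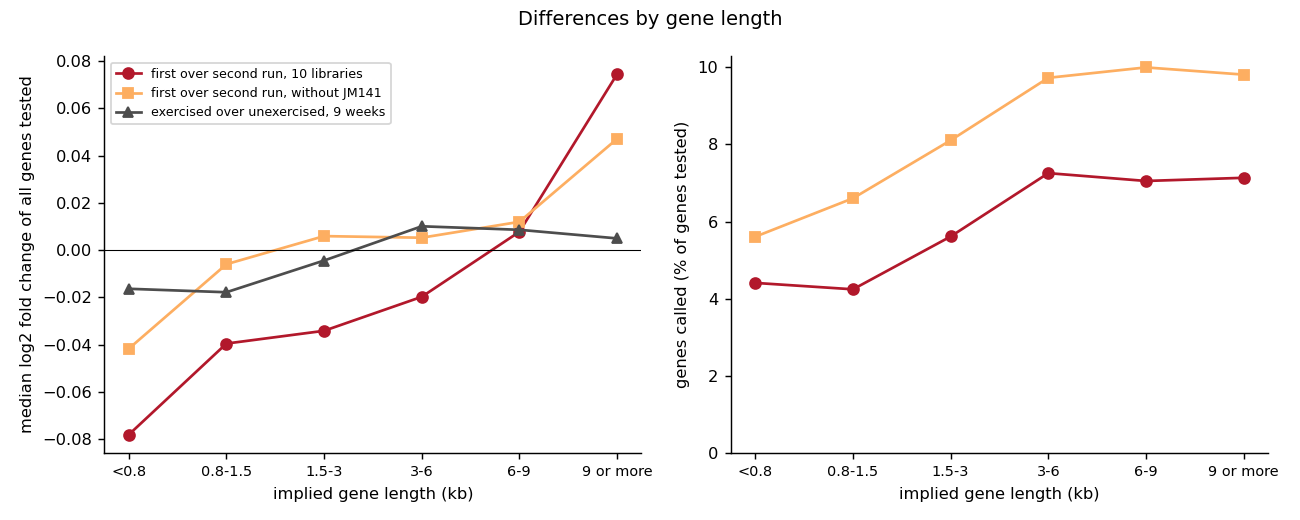
Median log2 fold change of all genes tested (left) and share of genes called (right) in 6 classes of implied gene length in kb, for the first over the second run with and without JM141 and, on the left, for exercise at 9 weeks. The run difference goes from -0.08 in the shortest class to 0.07 in the longest with JM141, and from -0.04 to 0.05 without it.

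Libraries of one run resembled each other slightly more than they resembled the other run. By Spearman's rank correlation of log2 CPM over 19707 genes, each of the 10 libraries had its closest 27-week library within its own run. The median correlation was 0.982 over the 10 pairs of the first run, 0.986 over the 6 pairs of the second run without JM141 and 0.979 over the 20 pairs between them. The ranges overlapped, at 0.971 to 0.992, 0.982 to 0.988 and 0.968 to 0.988. JM141 was closest to JM143 of its own run, at 0.912, and its other correlations were lower. All pairs share the ranking of genes by level, so these values are a description of small departures from it.

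For a typical gene the difference between the run means was of the size of the SD between single libraries of a run. A mean of several libraries varies less than a single library, so these sizes are not like with like. Over the 18150 genes averaging 1 CPM or more, the median SD between libraries was 0.165 log2 CPM in the first run and 0.211 in the second, or 0.149 in the second without JM141. The median absolute difference between run means was 0.182, or 0.161 without JM141. Within the first run JM132 lay farthest from the others, and without it the median SD was 0.141. In the 9-week libraries the median SD was 0.151 with exercise and 0.148 without, and the median absolute difference between those groups was 0.0911.

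To see how evenly the libraries shared the difference, each was placed on a scale from 0, the mean of the second run, to 1, the mean of the first. The position is the mean log2 CPM of genes called higher minus that of genes called lower, and both the calls and the run means leave out the library being placed. The first run lay at 0.740, 0.940, 0.918, 0.844 and 0.823 for JM132 to JM136, and the second run at 0.192, 0.219, 0.0803, 0.0268 and 0.180 for JM139, JM140, JM141, JM143 and JM144. Every library lay on the side of its own run, and JM141 lay among the other libraries of the second run. With JM141 in no fit and no mean, the first run lay at 0.614 to 0.910 and the rest of the second run at 0.0357 to 0.210. JM132 was the lowest of the first run both times. The split itself was known from all 10 libraries, so the positions are no test of it.

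**Figure D3:**
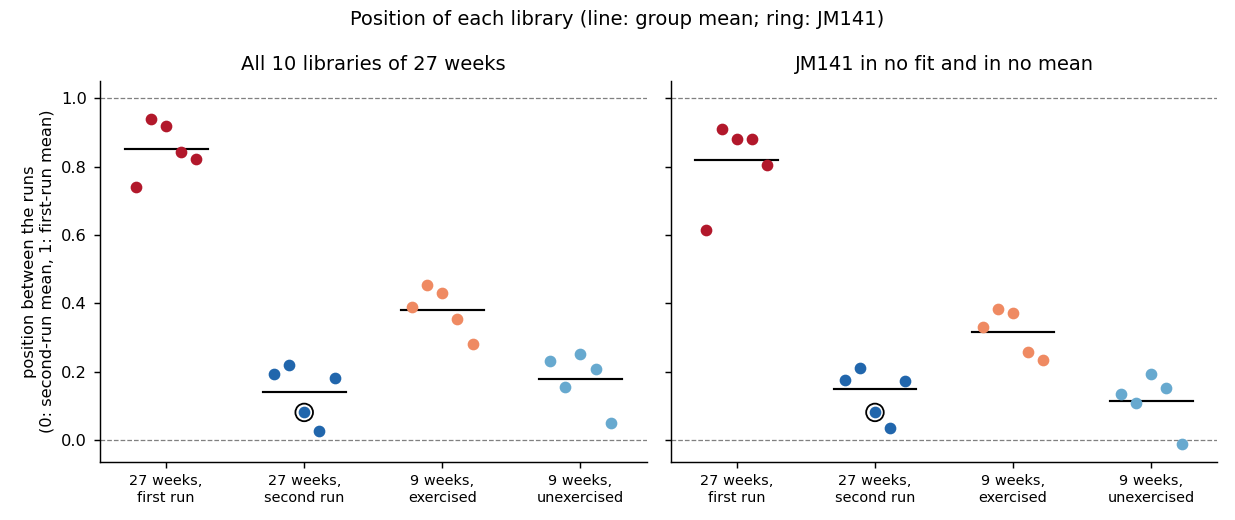
Position of each library between the second-run mean (0) and the first-run mean (1), with all 10 libraries of 27 weeks (left) and with JM141 in no fit and no mean (right), 1 point per library and lines at group means. 27-week libraries were placed on genes called without them, and 9-week libraries on genes called with all 10 libraries (left) or without JM141 (right). The runs do not overlap, and exercised 9-week libraries lie above unexercised ones in both panels.

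The 9-week libraries enter none of the calls between the runs, though how they compare with the runs was partly known when the runs were chosen. Placed between the run means on the genes called with all 10 libraries, the exercised and unexercised groups parted. Exercised 9-week libraries lay at 0.280 to 0.453 with a mean of 0.382 ± 0.0680, and unexercised ones at 0.0494 to 0.250 with a mean of 0.179 ± 0.0807 (SD, n = 5 each). The groups did not overlap, and the exercised group lay nearer to the first run than the unexercised group did. Each exercised library still lay nearer to the second-run mean than to the first-run mean. With JM141 in no fit they lay at 0.234 to 0.384 and -0.0135 to 0.193, again without overlap. Exercised 9-week libraries thus stood between the runs, and unexercised ones within or close to the range of the second run.

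Gene by gene, most run differences had the same direction in exercised over unexercised 9-week fish. This comparison has no library in common with that of the runs, but library measures differed in the same direction in both. Total counts averaged 21288176 ± 7831296 in exercised and 26326084 ± 3612040 in unexercised 9-week libraries (SD, n = 5 each). The slope on length averaged 0.0133 ± 0.00987 and 0.00461 ± 0.00761. The part of depth in the shared direction was not tested, and values with the length trend removed are given below. Of 557 genes higher in the first run and tested at 9 weeks, 439 (78.8%) were higher in exercised fish, with a median log2 fold change of 0.07. Of 593 lower genes, 465 (78.4%) were lower in exercised fish, with a median of -0.08. Over all 19004 genes tested in both, 49.3% were higher and 50.7% lower, with a median of -0.0022. Without JM141 the shares were 75.5% of 795 higher and 77.0% of 816 lower genes.

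The larger differences showed this most clearly on the lower side. Of the 74 genes at least 2-fold lower in the first run, 70 were lower in exercised 9-week fish, with a median log2 fold change of -0.49. Of the 34 genes at least 2-fold higher that were tested at 9 weeks, 27 were higher in exercised fish, with a median of 0.25. The ratio of the 9-week to the run log2 fold change had a median of 0.326 for the lower and 0.192 for the higher genes. These genes were chosen for a large run difference, with no condition on size at 9 weeks. That choice by itself favours small ratios, so they do not show which contrast is larger. Without JM141 the same direction was seen in 72 of 79 lower and 39 of 52 higher genes.

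Across the 19004 genes, the log2 fold changes of the runs and of exercise at 9 weeks correlated with Pearson's r of 0.255 and Spearman's rho of 0.194. Genes are not independent replicates, and all genes of a contrast share its libraries. Without JM141 r was 0.116 and rho 0.192 over 19050 genes, so Pearson's r rested largely on that library and the rank correlation did not. With the length trend removed from both contrasts r was 0.253 and rho 0.193. Leaving out single 9-week libraries moved both as well, with rho between 0.114 (without JM125) and 0.261 (without JM124). Without JM118 rho was 0.116. Pearson's r was 0.179 without JM125, 0.159 without JM118 and 0.318 without JM124.

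**Figure D4:**
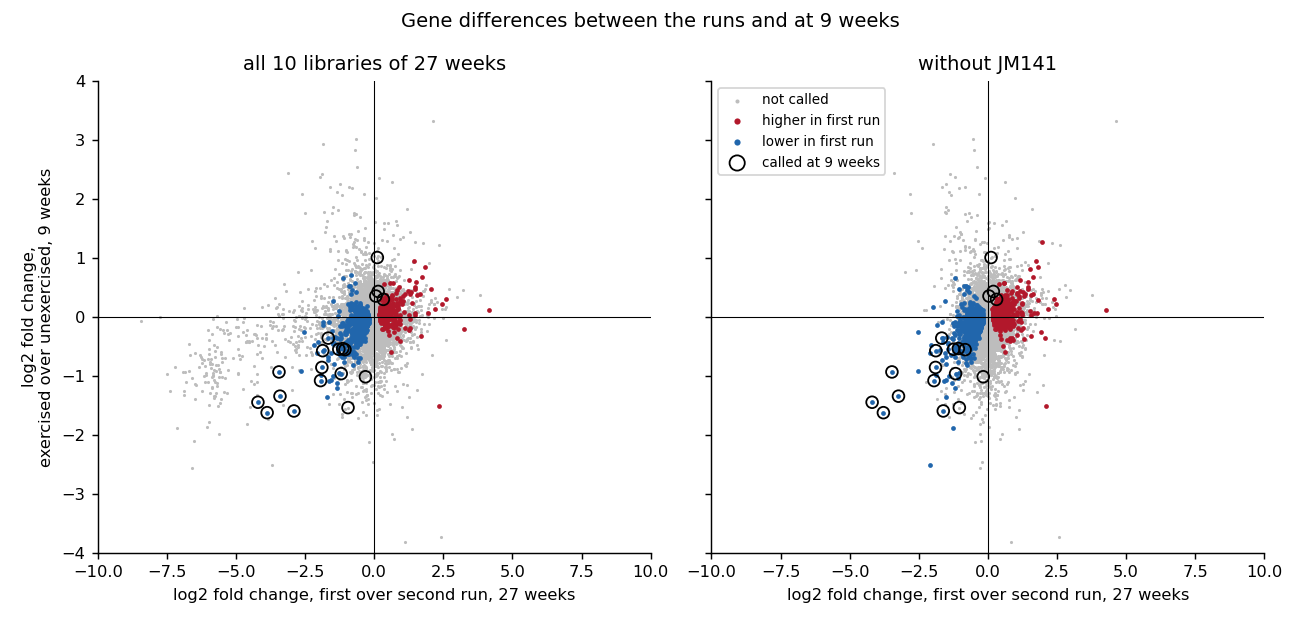
Log2 fold change of each gene for the first over the second run (horizontal) and for exercised over unexercised fish at 9 weeks (vertical), with all 10 libraries of 27 weeks (left) and without JM141 (right), limited to genes tested in the fit of all 10 and at 9 weeks. Most genes called lower in the first run (blue) lie below 0 at 9 weeks, and 13 of the 15 genes called lower with exercise (rings) are among them in each panel.

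Few genes passed a test of their own at 9 weeks, and most of those that did also parted the runs. In the 9-week fit edgeR called 19 of 19123 genes (0.0994%), 4 higher (0.0209%) and 15 lower (0.0784%) in exercised fish. All 15 lower genes had negative fold changes in the first over the second run, with a median of -1.87 on the log2 scale against -0.96 at 9 weeks, and 13 of them were among the calls of the runs, with and without JM141. These 13 are 86.7% of the 15 genes and 1.13% of the 1151 calls between the runs. Of all genes tested between the runs, 3.07% were called lower in the first run, or 4.21% without JM141. Of the 4 higher genes, 1 was called higher in the first run with JM141 and 0 without it, and their run differences were small, at 0.06 to 0.33. Single libraries decided the count of 19, which fell to 10, 7 and 0 without JM117, JM118 and JM119, and to 4, 10 and 9 without JM125, JM129 and JM130. In the fit without JM119, where edgeR called 0, 2119 genes had an unadjusted p below 0.05.

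The named lower genes belong to these 13. Nfu_g_1_010177 had 11.0, 13.7, 8.71, 11.3 and 12.4 CPM in exercised 9-week libraries, against 25.5, 26.2, 27.2, 28.5 and 46.6 CPM in unexercised ones (log2 fold change -1.45 with an SE of 0.19, adjusted p = 0.0250 by edgeR, all 5 below all 5). Nfu_g_1_011166 had 9.48, 9.64, 7.38, 7.73 and 11.9 CPM in exercised libraries, against 33.9, 23.9, 23.4, 22.6 and 36.3 CPM in unexercised ones (log2 fold change -1.62 with an SE of 0.18, adjusted p = 0.0165 by edgeR, all 5 below all 5). For both genes the first run lay below all exercised 9-week libraries, these lay below all unexercised ones, and the second run was highest on average. For Nfu_g_1_010177 only JM141, at 46.1 CPM, lay below an unexercised library, JM130 at 46.6 CPM. These CPM are not scaled for composition. TMM scaling divides them by 0.736 in JM141 and 0.988 in JM130, which puts JM141 above JM130. Without JM141 the second run began at 50.2 CPM, above all unexercised libraries. For Nfu_g_1_011166 the overlap remained without JM141, at 33.9 to 47.3 CPM against 22.6 to 36.3 CPM.

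The named higher genes overlapped between the 9-week groups. Nfu_g_1_009022 averaged 1.29 ± 0.839 CPM in exercised and 1.14 ± 0.789 CPM in unexercised fish (SD, n = 5 each). The second run, at a mean of 2.43 CPM, overlapped with both only through JM139, at 0.700 CPM. Its other libraries, at 2.56 to 3.15 CPM, lay above all 9-week libraries, though JM117 came close at 2.55 CPM. The 2.56 CPM is that of JM141 and is not scaled for composition. The TMM factor was 0.736 in JM141 and 1.02 in JM117, so scaling sets JM141 and JM117 further apart. Nfu_g_1_009750 ranged from 4.73 to 25.9 CPM in exercised and from 3.00 to 19.3 CPM in unexercised fish, a wide spread that reached into both runs. Their log2 fold changes at 9 weeks were 0.12 (SE 0.58) and 0.21 (SE 0.50), at edgeR adjusted p of 0.974 and 0.929.

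For the genes called between the runs, the first run lay farther from the 9-week groups than the second by median difference. The comparisons that follow share their 9-week libraries. For the 558 higher genes, the median difference in log2 CPM was 0.27 for the first run and -0.13 for the second against exercised 9-week fish, and 0.35 and -0.04 against unexercised ones. For the 593 lower genes it was -0.33 and 0.16 against exercised fish, and -0.41 and 0.07 against unexercised ones. With JM141 left out of the calls and of the second run, the 798 higher genes lay at 0.29 and -0.08 against exercised and at 0.37 and 0.0016 against unexercised fish. The lower genes then lay at -0.31 and 0.12, and at -0.40 and 0.05. Over all 19707 genes the medians were -0.0081 for the first run and 0.0062 for the second against exercised fish, and -0.023 and 0.0076 against unexercised ones. Without JM141 the second run lay at -0.0044 against exercised and -0.0060 against unexercised fish over these genes. Among called genes the first run lay outside both 9-week groups on the side of its call, above both for 532 of the 558 and below both for 539 of the 593, by group means. Genes chosen for a gap between the runs in a set direction are likelier to lie this way. The second run lay below both for 324 and above both for 123 of the 558, and above both for 363 of the 593. Without JM141 it lay below both for 366 and above both for 245 of the 798 higher genes, and above both for 479 and below both for 174 of 817 lower genes. Over all 19707 genes the first run lay above both in 7430 and below both in 8382. The second lay above both in 8253 and below both in 7821. Without JM141 the second run lay above both in 7418 and below both in 7827, fewer than the first run on each side. Over all genes, which run lay outside both groups more often thus changed with JM141.

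Group means ran in the order first run, exercised 9-week, unexercised 9-week, second run for many of these genes. For the 593 lower genes this rising order was seen in 250 (42.2%), and in 54 of the 74 with a difference of at least 2-fold. For the 558 higher genes the falling order was seen in 234 (41.9%), and in 18 of the 35 with a difference of at least 2-fold. With JM141 left out of the calls and of the second run, the shares were 39.9% of lower and 32.5% of higher genes. Over all 19707 genes the rising order was seen in 7.07% and the falling order in 5.32%. These shares are not like with like, since genes chosen for a gap between the runs in a set direction are likelier to hold the 9-week means between them.

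Few of the genes by which JM141 stood apart were called between the runs. Of its 880 high genes, 845 were tested between the runs and 5 were called (0.592%, against 5.95% of all genes), each of them lower in the first run. These genes were chosen for standing far off in 1 library, which widens the spread within its run and makes a call less likely. The shares with JM141 are therefore not like with like. Without JM141, 23 of the 880 were called lower and 21 higher, where 8.31% of all genes tested were called. Their median log2 fold change was -1.46 with JM141 and -0.04 without it.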

How the data were processed

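Brain RNA-seq libraries were compared as deposited. The authors deposited 1 table of raw counts and 1 of RPKM, both by gene. Tools named in the submitters' processing notes, without role or order, are STAR 2.4.1d, featureCounts 1.4.6-p4 and bcl2fastq 1.8.4. The sources used here give no genome build, annotation or strand setting, so reads of near-identical, overlapping or antisense genes cannot be told apart. The deposited RPKM values were divided by totals of other libraries, taken in turn down the table (log2 SD of the implied length 5.64e-05 that way, 0.42 with each library's own total, 10327 genes), and served only to recover gene length.

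The members and lists were chosen with earlier results of these data known. Counts were tested with edgeR 4.0.16 in R 4.3.3 (filterByExpr, TMM, glmQLFit, glmQLFTest, Benjamini-Hochberg, threshold 0.05) within the runs and within the 9-week groups, after a check on simulated counts. Each SE of a log2 fold change was worked back from the fit, as its size over the square root of the F statistic. Alternatives used DESeq2 1.42.0, limma 3.58.1 voom, other scaling and filters, a lowess trend on length (span 0.3) and left-out libraries. No library pair was alike within sampling noise (lowest chi-square per degree of freedom 7.86), and since no label names separate fish, p-values reflect the spread of libraries, which may be technical. Log2 CPM used a prior count of 2 and TMM factors. Named genes were the 2 largest log2 fold changes in each direction among genes called with and without JM141, with at least 1 CPM in the higher run and with runs that did not overlap once JM141 was left out. Complete separation of called genes was counted on TMM-scaled CPM, a choice made after seeing JM141's CPM, and the length classes, positions and group orders were also chosen after looking at the data. Gene lists and principal components were not analysed here.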

Additional observations from a re-analysis of the deposited data

Results flagged for a closer look

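In 44 sets of 5 values the gap between the highest or lowest library and its neighbour was set against the range, and 8 stood out. Chance gives about 1 in 20 for independent sets chosen unseen. These sets share libraries, and JM141 was known to stand apart beforehand, so the 8 flags are no test against chance. JM141 of the second run made up 4 of them, with 10.4% of its counts in its 10 most counted genes, a slope on length of -0.0603, a TMM scaling factor of 0.736, and a median distance from the rest of its run of 0.301 log2 CPM. JM118, an exercised 9-week library, was highest of its group in total counts, at 34843199, and in detected genes, at 22032. Nfu_g_1_009022 stood at 0.700 CPM in JM139, below the rest of the second run, and Nfu_g_1_010177 at 46.6 CPM in JM130, above the rest of the unexercised 9-week libraries. The causes were not tested.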

How the results depend on the processing

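No paired analysis was possible because no replicate numbers are labelled. The thinned counts were added after seeing the data; all other alternatives were planned. Causes of the changes were not tested.

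The 1151 genes called between the runs became 2510 with DESeq2, 2439 with limma-voom and 3335 with all 20 libraries in the fit. Without JM141 they became 2799 with DESeq2 and 2156 with limma-voom. Leaving out 1 library gave 394 to 1616, and JM141 together with another 683 to 1921. With counts thinned to the lowest total of the 27-week libraries edgeR called 1059, or 1465 without JM141. The share of higher genes lay between 41.8% (all 20 libraries) and 54.2% (length trend removed). The 4 named genes kept their direction and their call in each of these fits.

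The 19 genes called at 9 weeks became 356 with DESeq2 and 0 to 15 with 1 library left out. Genes with separate runs numbered 1835 and, without JM141, 2828. Leaving out 1 library gave differences between runs of -5412473 to -4173769 total counts and -127 to -75.1 genes detected. The latter passed without JM133 or JM135 (exact permutation adjusted p = 0.0476), for a split chosen after the counts were seen. Pearson's r with the 9-week differences was 0.116 to 0.318 with 1 library left out, and without JM141 0.115 with the length trend removed and 0.126 above 1 CPM.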

Other observations

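Leaving out JM132 changed which side held the larger run differences. Without JM132 and JM141, edgeR called 1921 genes, of which 145 were higher and 69 lower in the first run by 2-fold or more, where without JM141 alone 54 were higher and 81 lower. JM135 of the same run had 197 genes above the level of the other libraries by 4-fold or more, the most after JM141. At 27 weeks 10 of 10 libraries had their closest library within their own run, and at 9 weeks 8 of 10 had it within their own exercise group. These counts are not like with like, since the runs were chosen after the counts were seen to part and the 9-week groups by label.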
